A study of Mus musculus with 8 samples.

Results

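Genes for subunits and partners of the respiratory chain that exchange an isoform, or change in level, when oxygen is low were followed through all libraries of a melanoma study. The 6 genes were selected by name and not by a rule on their values, but earlier results of these data were known. They are *Cox4i1*, *Cox4i2*, *Ndufa4*, *Ndufa4l2*, *Higd1a* and *Iscu*, or 6 of the 55414 genes in the table. Expression was measured by RNA-seq in B16F10 cells, a mouse melanoma line that spreads to the lung, in 4 groups of 2 libraries each. WT cells and CypD KO cells, in which *Ppif* had been cut with Cas9, were grown at 21% oxygen. Control cells, a stable line with pcDNA but no insert, and cells labelled CypD OE, with *Ppif* in that plasmid, were grown at 1% oxygen. Every group was kept for 24 h at its oxygen level. CypD KO cells were clones that survived puromycin, and both plasmid lines were clones resistant to G418, so each modified group also differs from WT by transfection and cloning.

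Cytochrome c oxidase, or complex IV, passes electrons from cytochrome c to oxygen. COX4-2, the product of *Cox4i2*, replaces COX4-1 in low oxygen in several cell types, and the mitochondrial protease LONP1 removes COX4-1 in that exchange. NDUFA4 is a subunit of complex IV, NDUFA4L2 is its paralog and a known product of HIF1, HIGD1A is a small inner membrane protein that binds complex IV, and ISCU is the scaffold on which iron-sulfur clusters are built for the respiratory chain. ISCU is also a classical target of miR-210, a microRNA induced by HIF1. CypD, encoded by *Ppif*, regulates the mitochondrial permeability transition pore.

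In these cells the classical isoform exchange was not detected in the RNA, while *Higd1a* moved strongly. *Cox4i2* and *Ndufa4l2* stayed at or near 0 in every group, including both groups at 1% oxygen. *Higd1a* was 2.7 times as high in CypD KO as in WT, 4.58 times as high in Control as in WT, and fell by 2.23 on the log2 scale from Control to CypD OE. *Cox4i1*, *Ndufa4* and *Iscu* differed by at most 1.35 times between any groups.

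Values are TPM, the share of a library that a transcript takes after division by its length, which can be set side by side between genes. Differences are on the scale of log2(TPM + 1), with the standard error (SE) and an adjusted p from a limma fit over 13526 genes that reached 1 TPM in at least 2 libraries. From the steps between low values, depth was put at about 25800000 to 29800000 fragments per library, so that 1 fragment on 1000 effective bases gives 0.082 to 0.0975 TPM. *Ppif* itself was at 50.7 and 49.99 TPM in WT, 10.4 and 12.1 in CypD KO, 44.6 and 42.3 in Control, and 50.3 and 49.3 in the libraries labelled CypD OE. It was lower in CypD KO than in WT (log2 difference -2.07, SE 0.07, adjusted p = 3.81e-06). Between CypD OE and Control it was not past the threshold (0.19, SE 0.07, adjusted p = 0.0794), so that *Ppif* RNA did not separate these 2 groups past the threshold. For the protein, the paper's methods report a western blot that showed overexpression of CypD in the resistant clones. The sources used here do not say whether the 2 libraries of a group were separate cultures, so the p-values measure only the spread between libraries, which may be technical.

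The sequences shown are a promoter window of *Higd1a*, in which motifs of HIF1 were sought, and a match to miR-210 in *Iscu*. The *Higd1a* window belongs to an internal start, and the sequence at the 5′ end of its GENCODE gene was not searched. RefSeq held a promoter window, 250 bases before to 50 after the start, for *Ndufa4* and *Higd1a*, and none was used for *Cox4i1*, *Cox4i2*, *Ndufa4l2* and *Iscu*. The *Higd1a* window lies on the minus strand at chr9:121857747-121858046 of GRCm38.p6, and capitals mark matches to ACGTG or GCGTG, the cores of the hypoxia response element, on either strand.

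*Higd1a* promoter: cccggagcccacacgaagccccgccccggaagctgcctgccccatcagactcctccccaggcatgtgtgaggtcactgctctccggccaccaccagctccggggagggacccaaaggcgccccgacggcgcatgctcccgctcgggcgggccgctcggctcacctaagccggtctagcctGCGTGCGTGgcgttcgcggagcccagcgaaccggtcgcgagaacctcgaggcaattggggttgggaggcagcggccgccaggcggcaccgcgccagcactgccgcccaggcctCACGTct

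GCGTG began 70 and 66 bases upstream of the start, as a run that shares 1 base between both copies, and ACGTG lay on the opposite strand 43 bases downstream. The same 300 bases occur at 1 place on chromosome 9 of GRCm39, chr9:121686813-121687112, where the RefSeq start lies 566 bases inside the 5′ end of the GENCODE gene, so that the window is the promoter of an internal start. The *Ndufa4* window held GCGTG at 1 place, 35 bases downstream of its start. Of 32544 RefSeq promoters of this length, 19.7% held ACGTG, 32.6% held GCGTG and 44.0% held either on either strand, so a match is common. TGGGAA, the core bound by RBPJ, was in neither window and in 25.4% of all. These matches are letters in the reference and were not tested as binding sites.

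The microRNA and its match in *Iscu* are printed from RefSeq and from the GENCODE transcript Iscu-201. Capitals mark bases 2 to 8 of the microRNA, its seed, and the 7 bases that are complementary to it in the transcript.

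mmu-miR-210-3p: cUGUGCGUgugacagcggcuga

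*Iscu* site: cacatcaaagaagctacgcaaaACGCACAc

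The site lies in the last exon of *Iscu*, in the 3′ UTR at chr5:113916051-113916057 of GRCm39 on the plus strand, and begins 72 bases after the stop codon. It was the only such match in the 3′ UTRs of the 6 genes' canonical transcripts. Among 681 tested genes with a 3′ UTR of 900 to 1100 bases, near the 1002 bases of *Iscu*, 22 (3.23%) held it. *Mir210* was listed at 0 in all 8 libraries, which says nothing about the microRNA, since its hairpin of 110 bases is shorter than the sequenced fragments of about 206 to 214 bases.

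**Figure D1:**
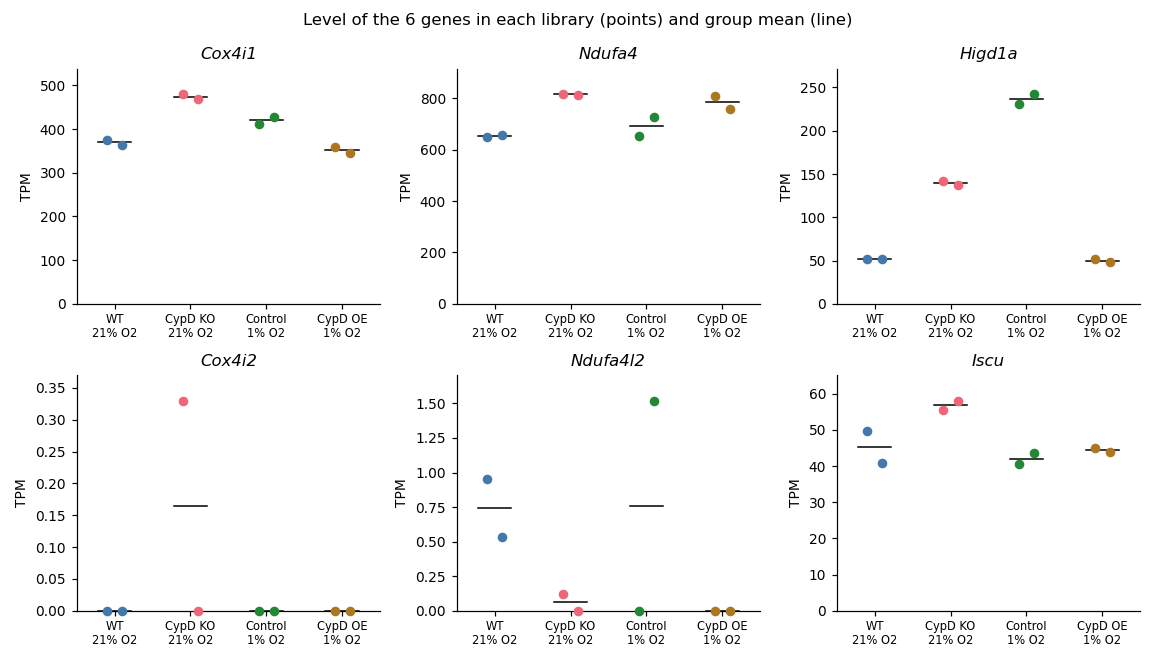
TPM of the 6 genes (vertical axes, each from 0) in each of the 8 libraries (points), with the mean of the 2 libraries of a group (lines). *Higd1a* stands at 137 TPM or above in all CypD KO and Control libraries and at 52.3 or below in all others, while *Cox4i2* and *Ndufa4l2* do not pass 1.52 TPM anywhere.

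*Cox4i1* (chr8:121391505-121400950 of GRCm39, plus strand) encodes the ubiquitous form of subunit 4, which is needed early in the assembly of complex IV. It was at 375 and 364 TPM in WT, 481 and 468 in CypD KO, 412 and 428 in Control, and 359 and 346 in CypD OE. The ranges of the 4 groups did not overlap, and the order from high to low was CypD KO, Control, WT and CypD OE. *Cox4i1* was 1.29 times as high in CypD KO as in WT (log2 difference 0.36, SE 0.03, adjusted p = 0.000231). It was lower in CypD OE than in Control (-0.25, SE 0.03, adjusted p = 0.00177) and higher in Control than in WT (0.18, SE 0.03, adjusted p = 0.0107). The last call was lost without WT replicate 2 (0.16, adjusted p = 0.0621) and without Control replicate 2 (0.16, adjusted p = 0.0578). CypD KO exceeded Control (0.18, adjusted p = 0.00648), whereas the neighbours WT and CypD OE at the low end did not pass the threshold (-0.07, 95% interval -0.15 to 0.01, adjusted p = 0.196).

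*Cox4i2* (chr2:152595625-152606959, plus strand) encodes the form of subunit 4 that is best known from lung and from oxygen-sensing cells. It was at 0.33 TPM in CypD KO replicate 1 and listed at 0 in the other 7 libraries. The single value corresponds to about 2.1 fragments. A count of 0 allows up to 3 fragments, which on this transcript is 0.447 to 0.529 TPM in the libraries at 0. Relative to the sum of *Cox4i1* and *Cox4i2*, the highest share of *Cox4i2* was 0.0686%, and 3 fragments would be at most 0.145% in any library. These limits cover counting error only. The gene was below the filter, and without the filter it gave no call in CypD KO against WT (0.21, adjusted p = 0.325).

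The log2 ratio of *Cox4i2* to *Cox4i1*, with 1 TPM added to each, averaged -8.53 ± 0.03 (SD, n = 2) in WT, -8.69 ± 0.26 in CypD KO, -8.72 ± 0.04 in Control and -8.47 ± 0.04 in CypD OE. Since *Cox4i2* was at 0 in 7 libraries, the differences between the ratios outside CypD KO replicate 1 follow *Cox4i1* alone, and no p is given for this ratio. An exchange of *Cox4i1* for *Cox4i2* was not detectable at this depth at 1% oxygen or in CypD KO.

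*Ndufa4* (chr6:11897630-11907496, minus strand), first described as a subunit of complex I and now counted with complex IV, was the most abundant of the 6. It was at 651 and 656 TPM in WT, 818 and 813 in CypD KO, 654 and 729 in Control, and 809 and 760 in CypD OE. The WT and Control ranges overlapped at 654 to 656 TPM, and both CypD-modified groups lay above them. *Ndufa4* was 1.25 times as high in CypD KO as in WT (log2 difference 0.32, SE 0.05, adjusted p = 0.00268). It was 1.13 times as high in CypD OE as in Control (0.18, SE 0.05, adjusted p = 0.0341), a call that was lost with the replicate number as a block (adjusted p = 0.0542), without Control replicate 1 (0.10, adjusted p = 0.116) and without CypD OE replicate 1 (0.14, adjusted p = 0.167). Control and WT differed by 0.08 (95% interval -0.05 to 0.21, adjusted p = 0.327). Of the neighbours in the order CypD KO, CypD OE, Control and WT, CypD KO and CypD OE did not pass the threshold either (0.06, 95% interval -0.07 to 0.18, adjusted p = 0.423).

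*Ndufa4l2* (chr10:127350818-127353038, plus strand) is strongly induced by HIF1 in many cells and lowers the use of oxygen. It was at 0.95 and 0.53 TPM in WT, 0.12 and 0 in CypD KO, 0 and 1.52 in Control, and listed at 0 in both CypD OE libraries. These values correspond to about 8.0 and 4.1 fragments in WT, 1.1 in CypD KO replicate 1 and 12.7 in Control replicate 2. The replicates of Control thus lay at both ends of the range of all libraries, and both WT libraries were above both CypD KO libraries. The gene passed 1 TPM in 1 library and was not tested in the limma fit. Without the filter it gave no call in CypD KO against WT (-0.71, adjusted p = 0.316), in CypD OE against Control (-0.67, adjusted p = 0.385) or in Control against WT (-0.12, adjusted p = 1).

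The share of *Ndufa4l2* in the sum with *Ndufa4* was at most 0.208%, in Control replicate 2. At 0, 3 fragments would be at most 0.059% of the sum in any library. The log2 ratio of *Ndufa4l2* to *Ndufa4* averaged -8.57 ± 0.25 (SD, n = 2) in WT, -9.59 ± 0.11 in CypD KO, -8.77 ± 0.83 in Control and -9.62 ± 0.06 in CypD OE. An exact permutation test over all 105 ways to divide the 8 libraries into 4 groups of 2 gave p = 0.2, where the smallest possible is 0.00952. *Ndufa4l2* was above 0 in only 4 libraries, and in the others the ratio follows *Ndufa4* alone, so this p cannot decide on an exchange. The mean ratios of CypD KO and CypD OE were below that of WT. For Control the direction turned on 1 library, since the difference from WT was -0.20 with both replicates and 0.39 without Control replicate 1.

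Another relative of NDUFA4 is encoded by *AA467197*, also called NMES1 or C15ORF48, which can take the place of NDUFA4 in complex IV in inflamed cells. It was at 0.33 and 0.18 TPM in WT, 2.18 and 3.54 in CypD KO, 1.55 and 1.07 in Control, and 0.26 and 0.83 in CypD OE. All CypD KO and Control libraries lay above all WT and CypD OE libraries. It was higher in CypD KO than in WT (log2 difference 1.60, SE 0.27, adjusted p = 0.00266). The differences of CypD OE from Control (-0.60, SE 0.27, adjusted p = 0.125) and of Control from WT (0.88, SE 0.27, adjusted p = 0.0559) did not pass the threshold. With 0.1 TPM added in place of 1, the last came to 2.002 and passed (adjusted p = 0.0423). Even in CypD KO its share of the sum with *Ndufa4* did not exceed 0.434%.

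**Figure D2:**
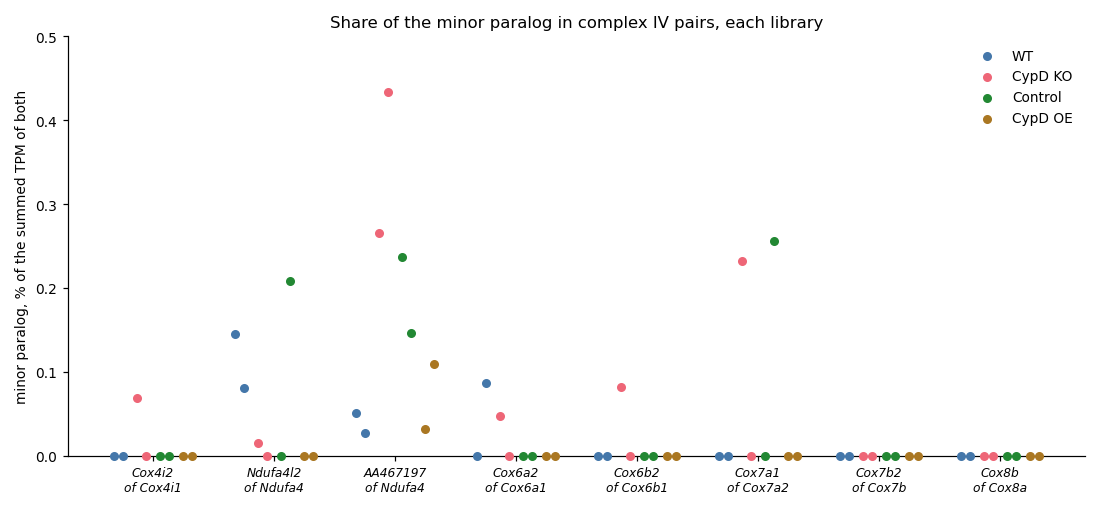
Share of the minor paralog in the summed TPM of a pair (vertical axis, %) for 8 pairs of complex IV genes (horizontal axis), with 1 point per library coloured by group. No point passes 0.434%, and *AA467197* alone is above 0 in all 8 libraries.

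The other complex IV genes with a tissue-restricted form had that form near 0 as well. The muscle forms *Cox6a2* and *Cox7a1* had at most 0.0871% and 0.256% of their pairs, in 2 libraries each, and the testis form *Cox6b2* had 0.0816% in 1 library. *Cox7b2* and the muscle form *Cox8b* were listed at 0 in all 8. None of these pairs was tested.

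*Higd1a* (chr9:121677622-121687428, minus strand) is induced by HIF1 and limits cell death in low oxygen and low glucose. It was at 52.3 and 51.2 TPM in WT, 142 and 137 in CypD KO, 231 and 243 in Control, and 51.5 and 47.8 in CypD OE. The libraries formed 3 separate levels, with WT and CypD OE overlapping at the bottom. The log2 difference was 1.42 (SE 0.05, adjusted p = 3.79e-06) for CypD KO against WT, and 2.17 (SE 0.05, adjusted p = 2.31e-06) for Control against WT. It was -2.23 (SE 0.05, adjusted p = 9.15e-07) for CypD OE against Control. CypD KO at 21% oxygen remained below Control at 1% (-0.76, SE 0.05, adjusted p = 5.11e-05). CypD OE at 1% oxygen and WT at 21% did not pass the threshold (-0.06, 95% interval -0.18 to 0.06, adjusted p = 0.414). Control differs from WT in oxygen and also in the vector and its selection, and these cannot be told apart here.

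Of the other HIG1 domain genes, *Higd2a*, which also assists the assembly of complex IV, was at 43.1 and 46.1 TPM in WT, 82.1 and 77.5 in CypD KO, 55.3 and 61.2 in Control, and 62.3 and 59.03 in CypD OE. All libraries of the other groups lay above WT. It was higher in CypD KO than in WT (0.83, SE 0.07, adjusted p = 0.000102) and in Control than in WT (0.38, SE 0.07, adjusted p = 0.00835). *Higd1b* was at 0.17 TPM in WT replicate 1 and listed at 0 elsewhere, and *Higd1c* was listed at 0 in all libraries.

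*Iscu* (chr5:113910776-113917545, plus strand) was at 49.8 and 40.9 TPM in WT, 55.6 and 58.1 in CypD KO, 40.6 and 43.5 in Control, and 44.9 and 43.9 in CypD OE. CypD KO lay above all other libraries, and the 2 WT libraries spanned those of Control and CypD OE except for Control replicate 1. *Iscu* was 1.25 times as high in CypD KO as in WT (log2 difference 0.33, SE 0.09, adjusted p = 0.0229). This call ended without WT replicate 2 (0.19, adjusted p = 0.0716), without CypD KO replicate 1 (0.36, adjusted p = 0.0655), without CypD KO replicate 2 (0.30, adjusted p = 0.107) and with median-of-ratios scaling (0.23, adjusted p = 0.0772). Control against WT was -0.10 (95% interval -0.32 to 0.11, adjusted p = 0.464), and CypD OE against Control 0.08 (95% interval -0.14 to 0.29, adjusted p = 0.546). A decrease of *Iscu* RNA, the direction in which miR-210 acts, was thus not detected in Control, and the interval reaches down to -0.32.

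Across the members, 4 of the 6 genes could be tested, and *Cox4i2* and *Ndufa4l2* were below the filter. In CypD KO against WT all 4 were higher, where 48.4% of all 13526 tested genes were called in either direction. In CypD OE against Control *Higd1a* and *Cox4i1* were lower and *Ndufa4* higher, beside 37.4% of all genes called. In Control against WT *Higd1a* and *Cox4i1* were higher, beside 24.2% called. Against WT, CypD OE was higher in *Ndufa4* and gave no call for the other 3 (27.7% of all genes called). CypD KO against Control gave calls for all 4 (44.0% called), with *Higd1a* lower and the other 3 higher, and CypD KO against CypD OE gave calls for all but *Ndufa4*, each higher in CypD KO (48.9% called). With so many genes called, a call alone says little of any of the 4. By size, 1010 genes rose and 205 fell by more than 1 with an adjusted p under 0.05 in CypD KO against WT, 181 and 55 in Control against WT, and 263 and 381 in CypD OE against Control, and *Higd1a* was among them each time.

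Of all calls in CypD KO against WT, 62.1% were higher (4066 against 2486 lower), and 49.4% with median-of-ratios scaling (3290 against 3364), which moved the median of all genes from 0.09 to 0.00. With that scaling *Cox4i1* was still higher by 0.26, *Ndufa4* by 0.22 and *Higd1a* by 1.32 in CypD KO. Single markers of other cells moved in both directions in CypD KO. *Acta2* was at 4.96 and 7.99 TPM in CypD KO and listed at 0 elsewhere, and *Col1a1* was at 38.5 and 41.1 TPM against at most 3.29 elsewhere. *Cd68* was at 21.9 and 23.3 TPM against at most 4.81. In contrast, *Col1a2* fell by 1.79 from WT to CypD KO (SE 0.27, adjusted p = 0.00176) and *Pdgfrb* fell by 0.70 (SE 0.15, adjusted p = 0.00794). The summed pericyte and smooth muscle list, whose cells often express *Cox4i2* and *Ndufa4l2*, was 12.01 to 13.96 TPM in CypD KO and 4.33 to 7.25 in the other groups, with 5 of 11 genes reaching 1 TPM, and *Kcnj8* and *Vtn* were listed at 0 throughout. Without *Acta2*, a choice made after seeing the data, this sum was 7.05 and 5.97 TPM in CypD KO and 7.25 and 7.03 in WT. The fibroblast list (3 of 6 reaching 1 TPM, *Dcn* at 0) summed to 74.7 TPM in CypD KO and 9.47 to 23.8 elsewhere, with *Col1a1* and *Postn* higher and *Col1a2* lower than in WT. In the leukocyte list *Cd68* alone reached 1 TPM, with *Adgre1* and *Cd3e* at 0, and in the endothelial list *Pecam1* alone did, with *Cdh5* at 0. The 7 melanocyte markers were all present. They summed to 12433 to 12587 TPM in CypD KO, 13586 to 13758 in CypD OE, 15665 to 15755 in WT and 20446 to 20984 in Control. In CypD KO against WT 5 were lower and 1 higher (6 and 1 with median-of-ratios scaling), beside 48.4% of all genes called. In Control against WT 6 were higher, beside 24.2% called. In bulk RNA, fewer cells of a type and less RNA per cell cannot be told apart, and the part of these genes in the members' values was not tested.

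**Figure D3:**
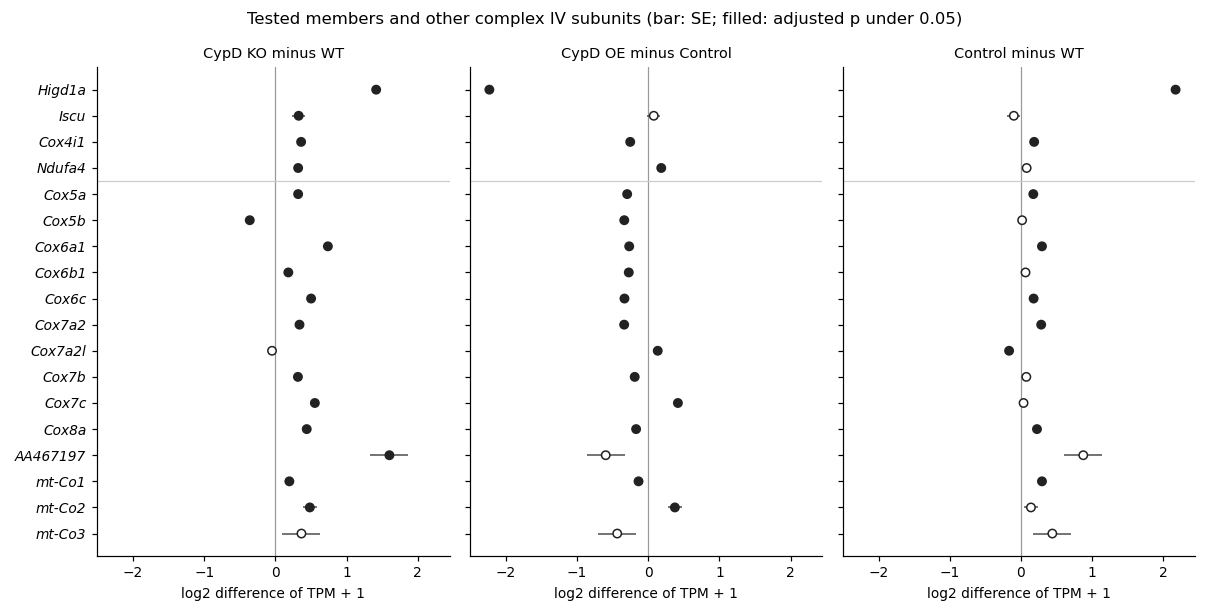
Log2 difference of TPM + 1 (horizontal axis) with its SE (bars) for the 4 tested members, above the line, and the other tested complex IV subunits in the 3 comparisons (panels). Filled points have an adjusted p under 0.05, and *Higd1a* lies at 1.42, -2.23 and 2.17 while *Cox4i1* and *Ndufa4* lie between -0.25 and 0.36.

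*Cox4i1* and *Ndufa4* were not the only subunits of complex IV to rise in CypD KO. Of 24 subunit genes listed, 16 could be tested. In CypD KO against WT 13 were higher and 1 lower (11 and 2 with median-of-ratios scaling), beside 48.4% of all genes called. The median difference of the 16 was 0.35, against 0.09 for all genes. The largest after *AA467197* was in *Cox6a1*, the form of subunit 6A outside muscle, at 226 and 229 TPM in WT and 379 and 380 in CypD KO (0.74, SE 0.06, adjusted p = 9.24e-05). *Cox7c* rose by 0.55 (SE 0.03, adjusted p = 3.5e-05). The 1 that fell was *Cox5b*, a matrix-side subunit, from 609 to 474 TPM (-0.36, SE 0.04, adjusted p = 0.000362), and it is named because no other did.

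In CypD OE against Control, 10 of the 16 subunits were lower and 4 higher, beside 37.4% of all genes called. The subunits had a median of -0.26 against 0.00 for all genes. *Cox4i1* was among the 10, with *Cox7a2* at -0.34 (SE 0.06, adjusted p = 0.0041). *Ndufa4* was among the 4 that rose, with *Cox7c* (0.42, SE 0.03, adjusted p = 0.0002), the mitochondrially encoded catalytic subunit *mt-Co2* (0.37, SE 0.09, adjusted p = 0.0199) and *Cox7a2l*, which joins complexes III and IV (0.13, SE 0.03, adjusted p = 0.0131). In Control against WT, 7 subunits were higher and 1 lower, beside 24.2% of all genes called, with a median of 0.18 against 0.01. The rises were led by *mt-Co1* (0.29, SE 0.03, adjusted p = 0.000632), *Cox6a1* (0.29, SE 0.06, adjusted p = 0.0123) and *Cox7a2* (0.28, SE 0.06, adjusted p = 0.0136). The 1 lower was *Cox7a2l* (-0.17, SE 0.03, adjusted p = 0.0089), which, like *Cox5b*, was singled out after its values were seen.

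Among the assembly factors of complex IV the calls went both ways. Of 22, all tested, 2 were higher and 6 lower in CypD KO against WT, 1 and 4 in CypD OE against Control, and 2 and 3 in Control against WT, where 48.4%, 37.4% and 24.2% of all genes were called. Their median differences were 0.02, -0.09 and -0.01, beside 0.09, 0.00 and 0.01 for all genes. *Coa7*, a factor in the space between the membranes, fell by 0.95 in CypD KO (SE 0.07, adjusted p = 6.14e-05) and by 0.49 in Control against WT (SE 0.07, adjusted p = 0.00324). *Cox14*, which acts on the translation and early assembly of COX1, rose in CypD KO (0.70, SE 0.11, adjusted p = 0.00225) and in Control (0.45, SE 0.11, adjusted p = 0.03) against WT. It was lower in CypD OE than in Control (-0.67, SE 0.11, adjusted p = 0.00386). *Cox17*, the copper carrier, was higher in CypD KO (0.56, SE 0.07, adjusted p = 0.000895).

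*Coa3*, a partner of *Cox14*, was lower in CypD OE than in Control (-0.50, SE 0.04, adjusted p = 0.000282), and *Cox10*, which makes heme O, was higher (0.30, SE 0.09, adjusted p = 0.0341). *Cmc2* was higher in Control than in WT (0.55, SE 0.12, adjusted p = 0.016).

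Around *Iscu*, 19 of 20 genes of iron-sulfur cluster assembly were in the table and tested. In CypD KO against WT 5 were higher and 2 lower, beside 48.4% of all genes called, but 3 and 4 with median-of-ratios scaling, and the median of 0.09 was that of all genes at this rounding. The cysteine desulfurase *Nfs1* was at 20.5 and 20.6 TPM in WT and 30.8 and 32.04 in CypD KO (0.59, SE 0.06, adjusted p = 0.000368), and its partner *Lyrm4* also rose (0.55, SE 0.11, adjusted p = 0.00565).

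In CypD OE against Control, 2 of the 19 were higher and 1 lower, beside 37.4% of all genes called. The chaperone *Hspa9* was higher (0.23, SE 0.02, adjusted p = 0.000506) and the acyl carrier *Ndufab1* lower (-0.11, SE 0.03, adjusted p = 0.0191). In Control against WT 1 was higher and 4 lower, beside 24.2% called, and *Hspa9* (-0.35, SE 0.02, adjusted p = 0.000209), *Nfu1* (-0.34, SE 0.08, adjusted p = 0.0278) and *Isca2* (-0.32, SE 0.07, adjusted p = 0.0221), the last 2 of which act late in cluster assembly, fell most.

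Of 8 regulators of the exchange, 7 could be tested, and 4 were higher in CypD KO against WT (3 with median-of-ratios scaling), where the others gave no call and 48.4% of all genes were called. In CypD OE against Control 2 were higher and 2 lower (37.4% of all genes called), and in Control against WT 2 and 1 (1 and 1 with that scaling, 24.2% called). *Lonp1* was high in the groups in which *Higd1a* was high. It was at 82.3 and 79.5 TPM in WT, 114 and 113 in CypD KO, 113 and 120 in Control, and 81.2 and 77.9 in CypD OE. CypD KO and Control overlapped at the top, and WT and CypD OE at the bottom. The difference was 0.48 (SE 0.04, adjusted p = 0.000155) in CypD KO against WT, 0.52 (SE 0.04, adjusted p = 0.000444) in Control against WT and -0.54 (SE 0.04, adjusted p = 0.000164) in CypD OE against Control. *Cox4i1* RNA did not fall where *Lonp1* rose, and the proteins were not measured.

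*Rbpj* and *Cxxc5*, factors that act on the *Cox4i2* promoter, were higher in CypD KO than in WT by 0.47 (SE 0.06, adjusted p = 0.000659) and 0.60 (SE 0.07, adjusted p = 0.000411). The rise of *Cxxc5* was not particular to CypD KO. *Cxxc5* was also higher in CypD OE than in Control (0.32, SE 0.07, adjusted p = 0.00962) and in Control than in WT (0.23, SE 0.07, adjusted p = 0.0496). The last call lies at the threshold, and with median-of-ratios scaling only 1 regulator was called higher in Control than in WT. *Hif1a* RNA was at 139 and 152 TPM in WT and 157 and 150 in CypD KO, which overlapped (0.08, SE 0.05, adjusted p = 0.24). It was lower in CypD OE than in Control (-0.47, SE 0.05, adjusted p = 0.000609). *Epas1*, which encodes HIF2α, was at 5.90 and 5.22 TPM in WT, 2.01 and 2.59 in Control and 6.19 and 6.20 in CypD OE. It was lower in Control than in WT (-0.99, SE 0.14, adjusted p = 0.00386) and higher in CypD OE than in Control (1.13, SE 0.14, adjusted p = 0.00127).

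Of 10 common hypoxia markers, 9 were higher and 1, *Ndrg1*, named because it stood alone, lower in CypD KO than in WT. All 10 were lower in CypD OE than in Control, and all 10 were higher in Control than in WT. Of all tested genes, 48.4%, 37.4% and 24.2% were called in these comparisons. The markers' median differences were 2.18, -2.11 and 2.09, beside 0.09, 0.00 and 0.01 for all genes and 1.42, -2.23 and 2.17 for *Higd1a*. *Bnip3*, a mitophagy receptor, was at 14.4 and 11.1 TPM in WT, 258 and 249 in CypD KO, 311 and 307 in Control, and 13.6 and 12.5 in CypD OE. *Ndufa4l2*, which is usually listed with such genes, was at 1.52 TPM or below in all 8 libraries.

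The genes whose pattern over the 8 libraries was most like that of each tested member were found by the mean absolute difference of log2(TPM + 1), after each gene was centred on its own mean. For *Higd1a* these were *Egln1*, a prolyl hydroxylase that marks HIF for destruction, at a mean difference of 0.0959, *P4ha2*, a collagen prolyl hydroxylase, at 0.0963, and the glycolytic enzyme *Tpi1* at 0.126. The median over all tested genes was 0.901. *Egln1* was at 22.1 and 21.9 TPM in WT, 70.9 and 68.9 in CypD KO, 102 and 99.3 in Control, and 21.2 and 22.4 in CypD OE. Like *Higd1a*, it had its highest values in Control, intermediate ones in CypD KO and overlapping low ones in WT and CypD OE.

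For *Cox4i1* the nearest were the transcriptional repressor *Rest* (0.0161), *Fbxo42* (0.0187) and *Cox5a*, the subunit that pairs with subunit 4 in assembly (0.0237), beside a median of 0.235. *Cox5a* was at 250.3 and 231 TPM in WT, 306 and 293 in CypD KO, 266 and 276 in Control, and 224 and 217 in CypD OE, the same order of groups as *Cox4i1*. For *Ndufa4* they were *Clptm1l* (0.0186), *Notch2* (0.0274) and *Fnbp1* (0.0303), beside 0.219. For *Iscu* they were *Triap1* (0.039), *Gnpnat1* (0.0416) and *Ddb1* (0.0422), beside 0.236. These distances are a description over 8 libraries in 4 groups, chosen as the smallest among 13526 genes.

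**Figure D4:**
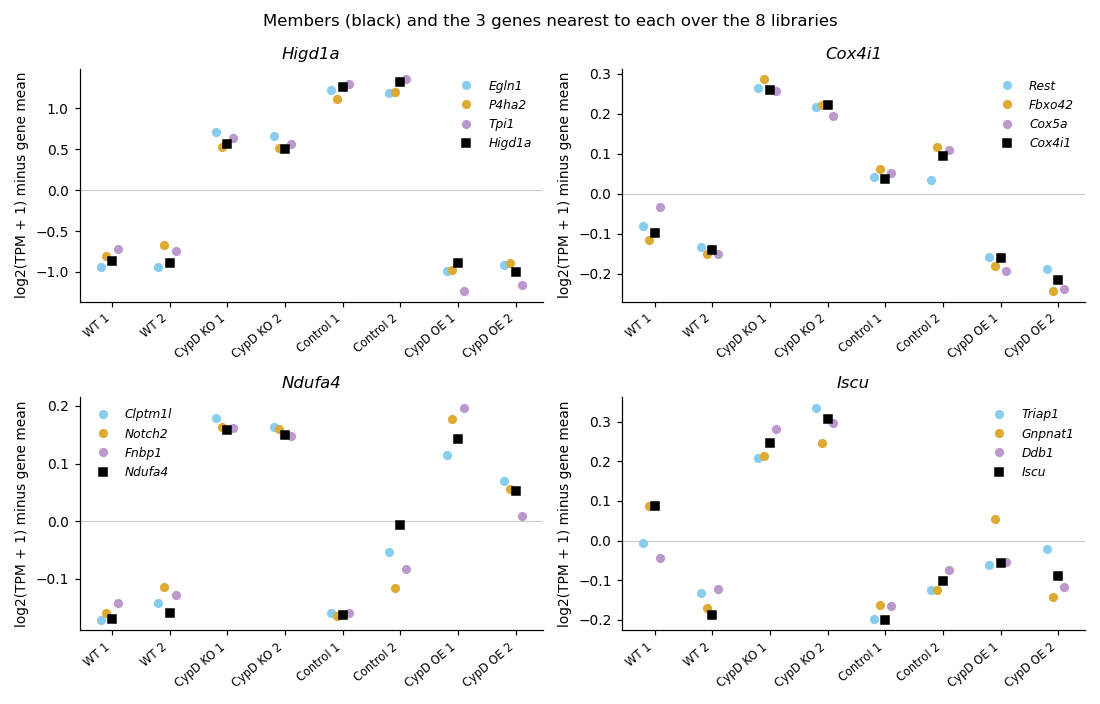
Log2(TPM + 1) minus the gene's own mean (vertical axes) in the 8 libraries (horizontal axis) for the 4 tested members (black squares) and the 3 genes nearest to each (coloured circles). *Higd1a* and its neighbours span more than 2 on this scale, and the other members less than 0.6.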

How the data were processed

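RNA-seq was performed on 8 libraries of B16F10 cells, 2 in each of 4 groups taken from the sample labels. According to their methods and processing notes, the authors depleted ribosomal RNA, sequenced paired-end reads of 150 bases, and used Cutadapt 3.4 for trimming, STAR 2.7.8a for alignment to GRCm39 and RSEM 1.3.1 for gene-level abundance. The labels and the methods name different RNA extraction kits. The deposited values are TPM for 55414 genes, whose sum the authors fixed in every library, so that a rise of abundant transcripts lowers all others. RSEM divides reads shared with similar copies. The authors' own tests used DESeq2 1.26.0 on read counts, which were not used here.

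The test used limma 3.58.1 (R 4.3.3) on log2(TPM + 1) of genes that reached 1 TPM in 2 or more libraries (4 group means, moderated with a trend in mean level; two-sided, Benjamini-Hochberg over 13526 genes, threshold 0.05). The ratio of *Ndufa4l2* to *Ndufa4* was tested by an exact permutation of the 8 libraries, and that of *Cox4i2* to *Cox4i1*, with 7 libraries at 0, is given without a test. Depth was estimated per library from values of up to 6 fragments on transcripts of 600 to 3000 bases, of which 83.8% to 86.7% were whole to within 0.15 (30% if spread evenly). The fit was tested on simulated data. For a count of 0, 3 fragments served only as an upper limit, and values of 0 stayed at 0 in the fits and ratios.

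The genes named are the members, their paralogs, the 3 genes of each list with the largest called and non-overlapping change per comparison, and the 3 nearest patterns per member. Some genes that this rule selects are not reported here. Members, lists and alternatives were chosen with earlier results of these data known. Alternatives were a pseudocount of 0.1, no filter or 5 TPM, median-of-ratios scaling, fits of 4 libraries, a replicate block, no trend and leaving out each replicate. Python 3.11.15 was used for the tables.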

Additional observations from a re-analysis of the deposited data

How the results depend on the processing

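*Higd1a* kept its direction and its call in all 3 comparisons under every alternative run, between 1.32 and 1.44 for CypD KO against WT, -2.28 and -2.18 for CypD OE against Control, and 2.14 and 2.21 for Control against WT. *Cox4i1* and *Ndufa4* did so in CypD KO against WT. The replicate numbers are shared across groups, but deviations of same-numbered libraries correlated at 0.108, -0.00175 and -0.0186, with 2 pairs per comparison, so they were not taken as pairs. With the replicate number as a block, *Higd1a* in CypD KO against WT stayed at 1.42 (adjusted p = 3.34e-05), and of the members' calls the block ended that of *Ndufa4* in CypD OE against Control (0.18, adjusted p = 0.0542).

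That call also ended without a filter (0.18), in the 4 libraries alone (0.18) and without a trend (0.18), and ranged from 0.10 to 0.26 on leaving out a replicate. *Iscu* in CypD KO against WT lost its call without a filter (0.33), with median-of-ratios scaling (0.23) and in the 4 libraries alone (0.33), and ranged from 0.19 to 0.46 on leaving out a replicate. *Iscu* in Control against WT, not called, turned to 0.037 without WT replicate 1 and ranged from -0.24. *Cox4i1* in Control against WT lost its call without a trend (0.18) and ranged from 0.16 to 0.21. *AA467197*, added after the data were seen, gained a call in Control against WT with a pseudocount of 0.1 (2.002).

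The calls in Control against WT fell from 1634 higher and 1635 lower to 998 and 983 in the 4 libraries alone, and to 939 to 1073 higher and 983 to 1082 lower on leaving out a replicate, where fewer libraries enter the fit.

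The ratio of *Cox4i2* to *Cox4i1* in CypD KO minus WT was -0.15, became 0.69 with a pseudocount of 0.1 and ranged from -0.34 to 0.032 on leaving out a replicate. The ratio of *Ndufa4l2* to *Ndufa4* went with that pseudocount from -1.02 to -2.77 in CypD KO minus WT, from -0.85 to -2.19 in CypD OE minus Control and from -0.20 to -1.09 in Control minus WT. On leaving out a replicate the last 2 ranged from -1.44 to -0.26 and from -0.79 to 0.39, and Control replicate 2 holds all *Ndufa4l2* fragments of its group. Where no cause is named, the cause was not tested. Depth limits both ratios, since their numerators rest on at most 12.7 fragments.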
